A study of Homo sapiens with 6 samples.

Results

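The genes of the HOX clusters were examined in HT-29 cells, a human colon adenocarcinoma cell line, after treatment with 5-aza-2′-deoxycytidine (5-Aza), an inhibitor of DNA methyltransferases. Every probe set of the HGU133 Plus2.0 microarray whose annotation gave a single symbol made of HOX, a cluster letter from A to D and a number was taken, which gave 44 of the 54675 probe sets on the array, for 28 genes. They comprised 1 probe set of 1 HOXA gene (HOXA2), 19 probe sets of 10 HOXB genes, 9 probe sets of 9 HOXC genes and 15 probe sets of 8 HOXD genes, and 15 genes had 1 probe set while 13 had 2 or 3. A further 3 probe sets carry several symbols with a HOX gene among them and were left out. The 3 treated arrays came from HT-29 cells given 10 µM 5-Aza for 72 h in medium without serum, and the 3 control arrays from HT-29 cells given only its solvent, water with acetate. Both groups shared the same line and differed in no other agent named in the sources. The culture time and serum condition of the controls are not stated separately. HT-29 is a single tumor-derived line grown as a culture, so other cells of the colon wall are absent from it, and the sources do not state if replicate arrays were hybridised with RNA from separate cultures. The p-values below therefore measure only how these arrays spread, which may be technical.

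HOX genes encode homeodomain transcription factors that set positional identity along the head to tail axis of the embryo. They lie in gene clusters in which the order of the genes follows the order of their expression along the body, with low position numbers anterior and high numbers posterior. In adult gut epithelium several of them stay expressed, and their CpG-rich promoters are known as frequent sites of altered DNA methylation in tumors. 5-Aza is built into DNA, traps DNA methyltransferases and lowers methylation as cells divide, so the comparison asks which HOX transcripts differed after a treatment that lowers DNA methylation. DNA methylation itself was not measured on these arrays.

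The label of the cells was checked on 12 colon epithelium markers, of which 9 were above the background on all treated arrays and 10 on all control arrays, among them EPCAM, CDH1, KRT8, KRT18 and KRT20. The intestinal homeobox gene CDX1 was under the background on all 6 arrays. CDX2 was above the background on 2 treated and 3 control arrays, and CDH17 on 1 treated and 2 control arrays. Of the list, 1 marker, CEACAM5, was higher with 5-Aza at an unadjusted limma p under 0.025 (log2 fold change 0.96, adjusted p = 0.319). That threshold called 2.97% of all probe sets higher. The background of an array was taken as its highest signal among the probe sets for TrpnX, a bacterial control sequence, and lay between 22.6 and 31.8 on the treated arrays and between 23.8 and 42 on the control arrays. The trimmed mean signal was 500 on every array, while the median signal was 84.6 ± 1.42 (SD, n = 3) with 5-Aza and 74.2 ± 2.56 (SD, n = 3) in the controls. The log2 signal of the 3′ probe set of ACTB exceeded that of its 5′ probe set by 0.73 ± 0.086 with 5-Aza and by 0.54 ± 0.077 in the controls (SD, n = 3 each, p = 0.1 in an exact two-sided permutation test, the smallest p this design allows), and the part of this difference in the HOX values was not tested. Summed signals of 8 fibroblast markers were 700 to 848 with 5-Aza and 631 to 684 in the controls, and those of 4 endothelium markers 246 to 309 and 163 to 223. The groups did not overlap in either sum, 4 and 2 of the fibroblast markers and 1 and 1 of the endothelium markers were above the background on all 3 arrays of a group, no marker was listed at 0, and their part in the HOX values was not tested. VWF, an endothelium marker, passed the same threshold (log2 fold change 1.95, adjusted p = 0.579). It was above the background on 2 treated arrays and 0 control arrays. Of 3 leukocyte markers measured none was above the background on all 3 arrays of a group.

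In HT-29 cells most HOX genes on the array gave signals above the background, and HOXD10 to HOXD13 gave none above the background on all 3 arrays of either group. Counting a gene as detected where at least 1 of its probe sets was above the background of the array, 24 of the 28 genes were detected on all 3 treated arrays and 22 on all 3 control arrays, with 22 in common. These were 10 and 9 of the 10 HOXB genes, 9 and 8 of the 9 HOXC genes, 4 and 4 of the 8 HOXD genes, and HOXA2 in both groups. HOXB1 and HOXC12 made the difference, each detected on 3 treated and 2 control arrays. For HOXC12 this followed the backgrounds of the arrays. Its signal of 36.9 on control array 3 was under a background of 42. Lower signals of 34.9 and 36.4 on treated arrays 2 and 3 passed backgrounds of 22.6 and 27.9. HOXD10 and HOXD12 were detected on no array, HOXD11 on 1 treated array, and HOXD13 on 2 treated arrays and 1 control array. No HOX gene differed by 2 or more arrays between the groups. Signals of different probe sets do not rank their transcripts, since each probe set has its own affinity, and the values below compare only arrays.

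**Figure D1:**
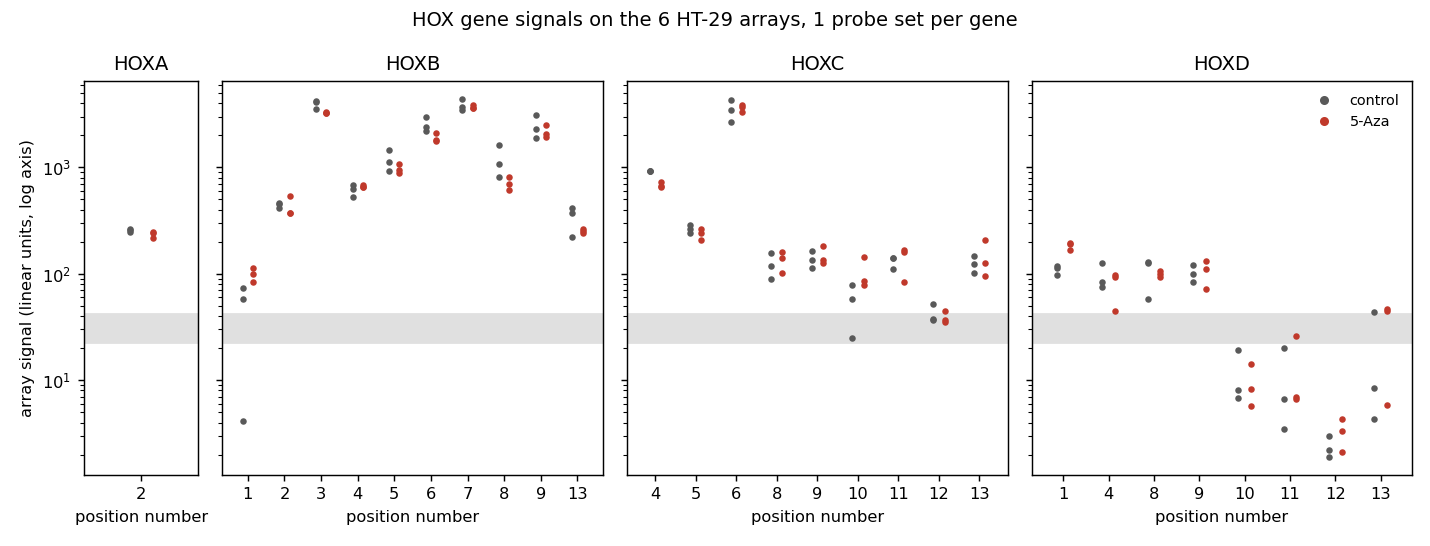
Signal of 1 probe set for each of the 28 HOX genes (the one with the highest mean signal, and one with the suffix _x_at only where a gene has no other), on a log axis against the position number of the gene in its cluster. Each point is 1 array, grey for control and red for 5-Aza, and the grey band spans the backgrounds of the 6 arrays, from 22.6 to 42. The points of HOXD10 to HOXD12 lie in or under the band, and those of HOXB1, HOXC10, HOXC12 and HOXD13 fall on both sides of its upper edge.

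Values on each array are given for the 8 genes whose probe sets had the highest mean signals, HOXB3, HOXB5 to HOXB9, HOXC4 and HOXC6, a choice by signal that does not order their transcripts. HOXB7 (204779_s_at) gave 3646.7, 3655.6 and 3848.8 on the treated arrays and 3697.6, 3478.2 and 4407.2 on the control arrays (log2 fold change -0.05, SE 0.16). HOXC6 (206858_s_at) gave 3714.0, 3321.0 and 3832.8 with 5-Aza and 3502.2, 2677.0 and 4343.8 without it (log2 fold change 0.07, SE 0.22). The treated values lay inside the range of the control values for both genes. HOXB9 (226461_at) likewise overlapped, with 1948.7, 2043.8 and 2512.8 against 2320.6, 1877.7 and 3089.0, as did HOXB5 (205601_s_at), with 889.2, 947.8 and 1071.5 against 1129.4, 928.3 and 1462.4. Their log2 fold changes were -0.14 (SE 0.24) and -0.25 (SE 0.22). The spread between the control arrays exceeded the difference between the groups in each of these genes.

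Across all members few HOX probe sets passed a test. At an unadjusted limma p under 0.025, 1 of 44 HOX probe sets was higher with 5-Aza (2.27%, HOXD1) and 1 was lower (2.27%, HOXC4). Among all 54614 probe sets tested the corresponding shares were 2.97% higher and 1.05% lower. The study set this threshold for SAM, and with a SAM-type statistic in place of limma 0 HOX probe sets were higher and 0 lower, where 2.42% and 0.923% of all probe sets were called. The counts were also 1 and 1 at a p under 0.05, where 5.26% and 1.97% of all probe sets were called. After Benjamini-Hochberg adjustment over all probe sets, limma called 0 HOX probe sets and 0% of all probe sets, and the smallest adjusted p of a member was 0.448. The groups did not overlap in 3 HOX probe sets with higher treated signals (6.82%, with 9.29% of all probe sets) and in 6 with lower treated signals (13.6%, with 5.22% of all), while 35 overlapped. When each array was instead centred on its median, the median over all 54614 log2 fold changes went from 0.06 to -0.12, and the HOX calls were 1 higher and 5 lower, where 1.7% of all probe sets were higher and 2.66% lower. With that centring 2 higher and 11 lower of the 44 HOX probe sets did not overlap. The shares over all probe sets were 4.3% and 15.1%.

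The log2 fold changes of the members had a median of -0.05, with 20 above and 24 below 0, where the median over all probe sets was 0.06. These medians were -0.14 and -0.01 after quantile normalization and -0.23 and -0.12 after median centring. Without control array 3 the members' median was 0.05 and that of all probe sets 0.07. By cluster, the median was -0.13 for HOXB, where 13 of 19 values were negative and the values ran from -0.69 to 1.81. It was 0.07 for HOXC, from -0.44 to 1.03, and 0.03 for HOXD, from -0.94 to 0.92. The 95% interval of the log2 fold change lay wholly between -1 and 1 for 26 of the 44 members (59.1%) and for 42.9% of all probe sets. Of those 26, 24 were above the background on all 3 arrays of a group, 13 in HOXB, 8 in HOXC, 2 in HOXD and 1 in HOXA. The other 2, of HOXD10 and HOXD12, were under the background on every array, and their intervals limit no change of the transcript.

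**Figure D2:**
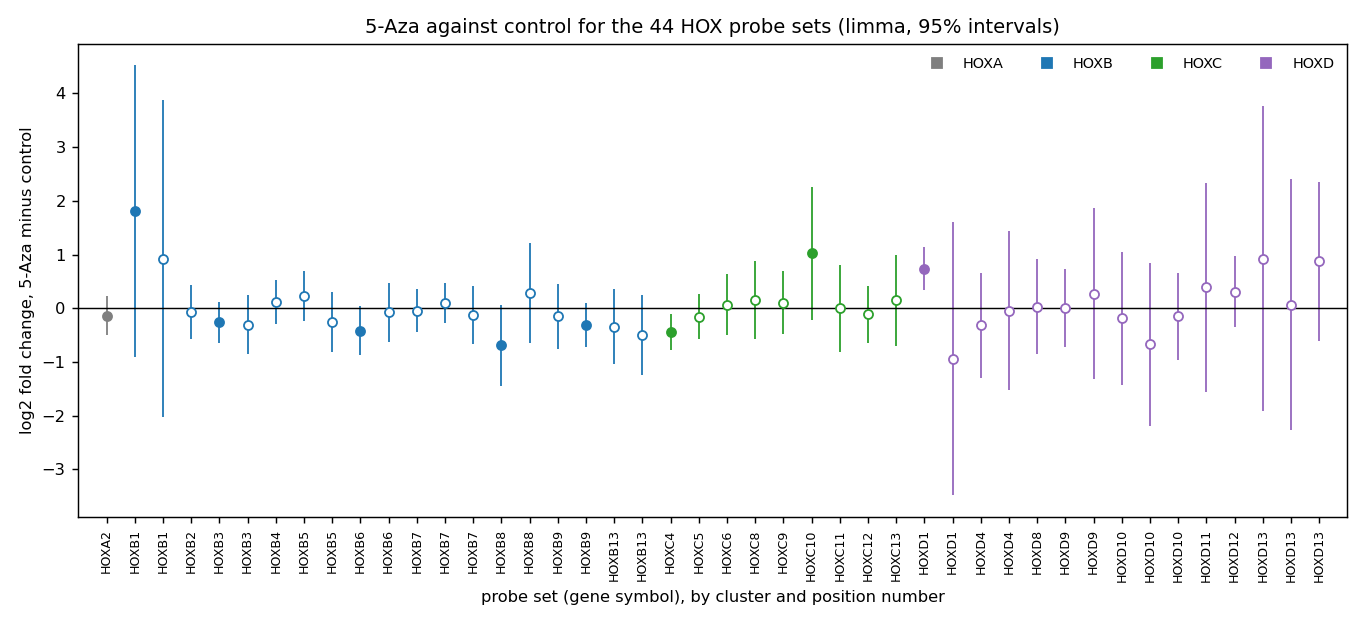
Log2 fold change (5-Aza minus control) of each of the 44 HOX probe sets with its 95% interval from limma, ordered by cluster and position number. Filled points mark the 9 probe sets whose 3 treated and 3 control arrays did not overlap, and colors mark the clusters. The intervals of HOXD1 (0.34 to 1.15) and HOXC4 (-0.77 to -0.10) leave out 0, and 18 of the 44 intervals reach past -1 or 1.

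HOXD1, the most anterior HOXD gene on the array, had the smallest p-value of the members. Its probe set 205975_s_at gave 166.0, 193.8 and 190.0 on the treated arrays and 117.8, 96.9 and 112.6 on the control arrays. All 3 treated signals were above all 3 control signals and every signal was above the background. The difference between the mean log2(signal + 1) values corresponded to a 1.68-fold higher treated signal (log2 fold change 0.74, SE 0.16, 95% interval 0.34 to 1.15, limma p = 0.00455, adjusted p = 0.448, exact permutation p = 0.1). Leaving out any 1 array gave log2 fold changes of 0.66 to 0.81 and kept the call, which the SAM-type statistic did not. The other HOXD1 probe set, 205974_at, gave 3.3, 5.7 and 22.1 with 5-Aza and 3.8, 33.1 and 27.6 without it, values under the background of their arrays (log2 fold change -0.94, SE 1.01), and the mean log2 signal of both probe sets differed by -0.10. The higher value thus rests on 1 of 2 probe sets.

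HOXC4 lies at the anterior end of the HOXC genes measured here. Its probe set 206194_at gave 658.0, 725.7 and 673.9 with 5-Aza and 923.0, 923.9 and 935.6 in the controls. The control arrays lay within a narrow range and all 3 treated arrays were below it, a difference of 1.35-fold (log2 fold change -0.44, SE 0.13, 95% interval -0.77 to -0.10, limma p = 0.0201, adjusted p = 0.604, exact permutation p = 0.1). Without any 1 of the arrays the log2 fold change was -0.48 to -0.41 and p was above 0.025 in each case. The p-value was also above 0.025 with the SAM-type statistic and in limma with the replicate number as a block. HOXC5, which shares its annotated start with HOXC4, gave 242.9, 206.1 and 263.4 with 5-Aza and 243.2, 284.6 and 264.2 without it, and the groups overlapped (log2 fold change -0.16, SE 0.17).

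Promoter sequences are shown for HOXD1 and HOXC4, the genes of both calls, and for HOXB1, higher without overlap with 208224_at. HOXA2, lower without overlap, also had a window, which is not printed. The sequences are shown because CG dinucleotides are the sites DNA methyltransferases act on. RefSeq promoter windows (GRCh38.p14, 250 bases before to 50 after the start) were matched for 11 of the 28 HOX genes, HOXA2, HOXB1, HOXC4, HOXC5, HOXD1, HOXD4, HOXD8 and HOXD10 to HOXD13. The windows of HOXC4 and HOXC5 are the same. The sequences run 5′ to 3′ on the strand of the gene, at chr2:176188418-176188717 (+) for HOXD1, chr12:54016638-54016937 (+) for HOXC4 and chr17:48530962-48531261 (-) for HOXB1. Capitals mark each CG, which reads the same on both strands.
HOXD1: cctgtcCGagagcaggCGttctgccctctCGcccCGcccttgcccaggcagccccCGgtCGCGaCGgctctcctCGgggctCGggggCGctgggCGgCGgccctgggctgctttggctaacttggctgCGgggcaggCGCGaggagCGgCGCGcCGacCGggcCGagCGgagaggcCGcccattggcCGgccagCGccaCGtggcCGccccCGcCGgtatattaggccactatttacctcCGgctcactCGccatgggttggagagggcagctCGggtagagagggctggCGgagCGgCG
HOXC4: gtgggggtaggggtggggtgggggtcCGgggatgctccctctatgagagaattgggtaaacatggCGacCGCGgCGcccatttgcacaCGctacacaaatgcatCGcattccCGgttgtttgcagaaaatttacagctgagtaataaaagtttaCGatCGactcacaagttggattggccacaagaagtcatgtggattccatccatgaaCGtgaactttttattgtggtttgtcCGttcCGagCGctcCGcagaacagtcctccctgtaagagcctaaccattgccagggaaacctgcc
HOXB1: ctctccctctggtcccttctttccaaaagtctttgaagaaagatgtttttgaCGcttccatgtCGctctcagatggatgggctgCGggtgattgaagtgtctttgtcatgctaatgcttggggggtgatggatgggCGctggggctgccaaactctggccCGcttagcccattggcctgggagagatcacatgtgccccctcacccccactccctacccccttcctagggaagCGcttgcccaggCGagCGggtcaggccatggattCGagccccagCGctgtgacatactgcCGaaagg
The HOXD1 window holds 36 CG dinucleotides, that of HOXC4 holds 15 and that of HOXB1 holds 11. Over all 35116 windows of this length the median was 14, with quartiles of 4 and 28, and 96% held at least 1 CG. As many CG as in HOXD1 occurred in 12.7% of all windows, as many as in HOXC4 in 48.9% and as many as in HOXB1 in 54.7%. HOXD8 came nearest to HOXD1 with 34 CG, and its signals of 100.6, 93.0 and 106.6 with 5-Aza lay within the control signals of 57.7, 128.5 and 125.2 (log2 fold change 0.03, SE 0.35). The windows of HOXD10, HOXD11, HOXD12 and HOXD13 held 23, 27, 19 and 24 CG, and these genes had no signal above the background on all 3 arrays of either group. HOXD4 held 4 CG and HOXA2 held 11. A CG count describes the window and says nothing of its methylation in these cells.

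The other probe sets with higher treated signals and no overlap were those of HOXB1 and HOXC10, and neither passed the test. HOXB1 is the most anterior HOXB gene and patterns the hindbrain. Its probe set 208224_at gave 83.5, 112.2 and 98.8 with 5-Aza and 57.5, 4.1 and 73.6 in the controls, so that all treated signals were above the background and control array 2 was far below it (log2 fold change 1.81, SE 1.08, limma adjusted p = 0.789). Without control array 2 the log2 fold change was 0.58, and with 16 in place of 1 added to the signals it was 1.16. A second HOXB1 probe set, 243811_at, stayed at or under 25.3 on all arrays and was not above the background. HOXC10, a posterior HOXC gene, gave 79.1, 85.9 and 142.4 with 5-Aza and 24.7, 57.4 and 77.7 in the controls, with the highest control signal just under the lowest treated one (log2 fold change 1.03, SE 0.49, limma adjusted p = 0.741). Without control array 1 its log2 fold change was 0.56.

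Of the 6 probe sets with lower treated signals and no overlap, HOXC4 was the only one past the test, 4 belonged to HOXB3, HOXB6, HOXB8 and HOXB9, and 1 to HOXA2. HOXB8 (229667_s_at) had the largest difference, with 695.0, 611.1 and 804.6 with 5-Aza and 1087.9, 813.4 and 1629.8 without it (log2 fold change -0.69, SE 0.30, limma adjusted p = 0.719). The lowest control array and the highest treated array were almost level, and the log2 fold change was -0.43 without control array 3 and -0.93 without control array 2. HOXB6 (205366_s_at) gave 1768.6, 1819.0 and 2101.1 against 2425.7, 2212.0 and 2988.4 (log2 fold change -0.42, SE 0.18, limma adjusted p = 0.721). The other HOXB6 probe set, 205365_at, gave 287.3, 318.3 and 306.3 against 245.8, 341.7 and 389.7, and its groups overlapped (log2 fold change -0.07, SE 0.22). HOXB3 (228904_at) gave 3282.9, 3267.6 and 3299.7 against 4127.6, 3507.5 and 4229.2 (log2 fold change -0.26, SE 0.15, limma adjusted p = 0.777). The treated arrays of HOXB3 were almost level with each other, and the gap to the lowest control array was small beside the spread of the controls. The other HOXB3 probe set, 208414_s_at, gave 181.1, 199.4 and 278.1 against 246.3, 260.2 and 297.7, and its groups overlapped (log2 fold change -0.31, SE 0.22). HOXB9 (216417_x_at) gave 1114.3, 1203.7 and 1240.9 against 1425.0, 1327.0 and 1703.3 (log2 fold change -0.32, SE 0.16, limma adjusted p = 0.757), and the suffix _x_at marks a probe set that may also bind other transcripts. HOXA2 gave 241.5, 245.2 and 214.9 against 257.4, 266.0 and 247.6 (log2 fold change -0.14, SE 0.14, limma adjusted p = 0.867), a difference close to its standard error.

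**Figure D3:**
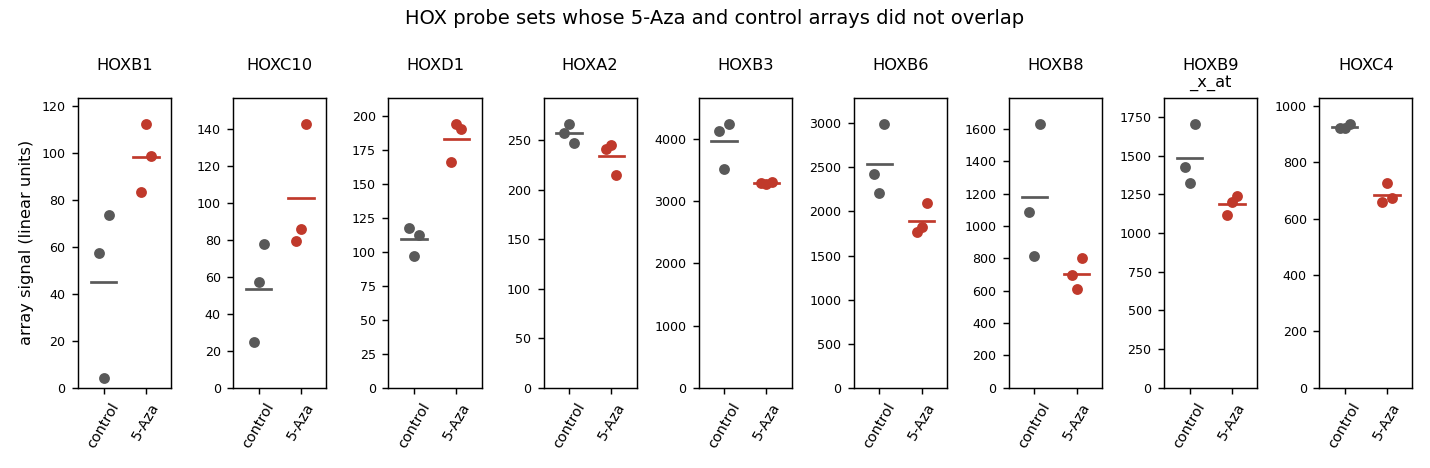
Signals of the 9 HOX probe sets in which no treated array overlapped a control array, with linear axes from 0 that differ between panels. Points are the 3 arrays of a group and lines their means. The treated signals are above the controls in HOXB1, HOXC10 and HOXD1 and below them in the other 6, and the 3 control arrays of HOXC4 lie close together.

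The probe sets with strong signals followed a common order of the control arrays. Among the 13 HOX probe sets with a mean signal over 500, for 9 genes and with 11 of them in HOXB, control array 3 was the highest of the 3 controls in 13 and control array 2 the lowest in 12. Over all 13828 probe sets with a mean signal over 500, control array 3 was the highest control in 33.5% and control array 2 the lowest in 37.6%. For the 19 HOXB probe sets the counts were 16 and 14. The median SD of the log2 signal of the 13 HOX probe sets was 0.22 among the controls and 0.08 among the treated arrays, where all strong probe sets had 0.16 and 0.10. Their median log2 fold change was -0.14 with 9 negative values, against -0.01 and 52.4% negative for all strong probe sets. In 5 of the 13 the treated arrays were all lower, while the share was 10.4% over all strong probe sets. Neighboring HOX genes can share transcripts and probe sets of 1 gene share its RNA, so the 13 are not independent of each other, and the cause of the order was not tested.

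**Figure D4:**
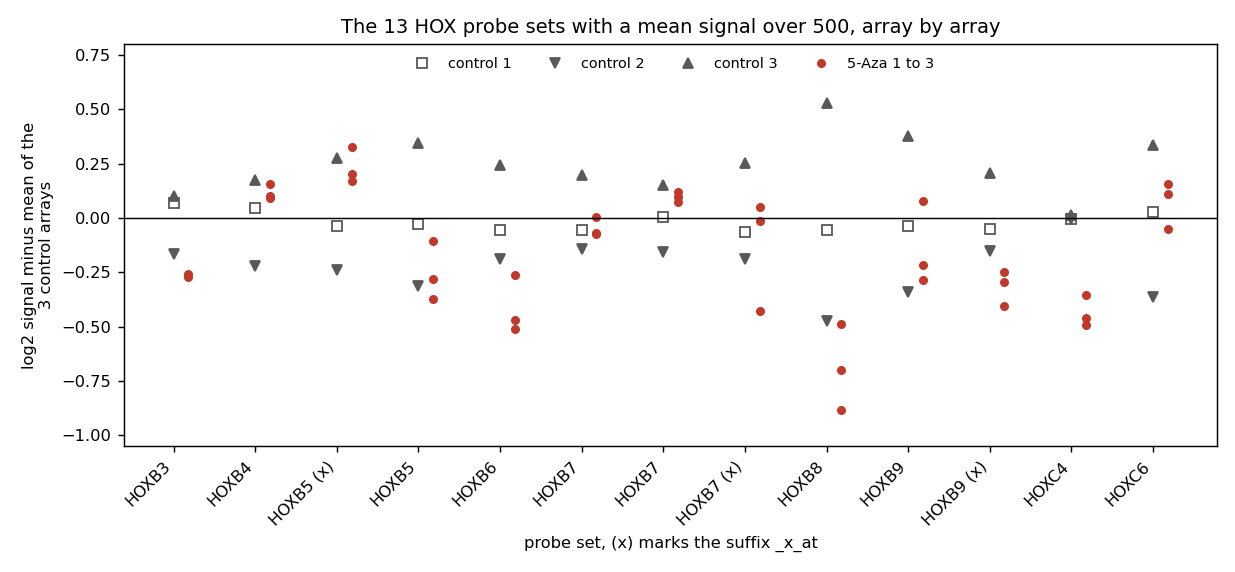
Log2 signal of each array minus the mean log2 signal of the 3 control arrays, for the 13 HOX probe sets with a mean signal over 500. Grey symbols are control arrays 1 (square), 2 (triangle down) and 3 (triangle up), and red points are the 3 treated arrays. Control array 3 is the highest control for all 13 probe sets and control array 2 the lowest for 12.

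The remaining HOXB and HOXC genes overlapped between the groups. HOXB2 gave 375.8, 539.3 and 375.0 with 5-Aza and 451.4, 463.6 and 418.5 without it (log2 fold change -0.07, SE 0.20), and HOXB4 gave 650.2, 653.6 and 678.7 against 629.8, 523.5 and 687.9 (log2 fold change 0.12, SE 0.16). HOXB13, the most posterior HOXB gene and known as a marker of distal gut and prostate, gave 254.8, 242.4 and 263.6 with 5-Aza against 370.0, 219.5 and 413.5 (log2 fold change -0.35, SE 0.28) with 1 probe set, and 220.5, 204.6 and 172.8 against 406.7, 201.2 and 272.0 (log2 fold change -0.50, SE 0.30) with the other. In both, control array 2 was within or below the treated values and the other control arrays were above them. The HOXC genes HOXC8, HOXC9, HOXC11, HOXC12 and HOXC13 had log2 fold changes of 0.15, 0.10, -0.00, -0.11 and 0.15. HOXC12 stayed near the background, with 44.6, 34.9 and 36.4 on the treated arrays and 37.2, 52.3 and 36.9 on the control arrays.

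Among the HOXD genes between the ends of the cluster, HOXD4 (205522_at) gave 93.3, 96.9 and 44.5 with 5-Aza and 83.7, 75.9 and 125.2 without it, and HOXD9 (205604_at) gave 71.6, 132.0 and 111.1 against 100.6, 122.2 and 84.5. The groups overlapped in both genes, and their log2 fold changes were -0.32 (SE 0.39) and 0.01 (SE 0.29). The posterior genes stayed low with and without 5-Aza. The 3 probe sets of HOXD10 did not exceed 19.2 on any array and that of HOXD12 did not exceed 4.3, while HOXD11 gave 6.6, 26.1 and 7.0 with 5-Aza and 20.1, 6.7 and 3.5 without it. HOXD13, the most posterior HOXD gene, gave 46.8, 5.9 and 44.8 with 5-Aza and 43.5, 8.5 and 4.3 without it (207398_at, log2 fold change 0.92, SE 1.13), a set of values that jumped between background and just above it in both groups. No change in these genes was detectable at this signal.

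Probe sets of the same gene did not always give the same sign. In 4 of the 13 genes with several probe sets, HOXB5, HOXB7, HOXB8 and HOXD1, log2 fold changes of both signs occurred. HOXB5 had -0.25 with 205601_s_at and 0.23 with 205600_x_at, which gave 1367.6, 1396.8 and 1523.2 with 5-Aza and 1183.8, 1030.5 and 1473.3 without it. HOXB8 had -0.69 with 229667_s_at and 0.29 with 221278_at, whose signals of 96.5, 140.5 and 133.2 and of 61.5, 107.7 and 147.4 were much lower. The HOXB7 probe sets had -0.05, 0.10 and -0.13. HOXB3, HOXB6, HOXB9, HOXB13 and HOXD4 gave negative values with both of their probe sets, and HOXD10, under the background on every array, with all 3. HOXB9 (226461_at) gave 0.05 without control array 3.

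The genes that work with or lie beside the HOX clusters were compared in the same fit. Of 14 listed noncoding transcripts of the clusters, 10 were measured, 0 passed an unadjusted limma p under 0.025 and their median log2 fold change was -0.18. HOTAIR, a noncoding RNA transcribed from the HOXC cluster, gave 1055.3, 1326.6 and 1349.5 with 5-Aza and 1540.4, 1472.7 and 1871.9 without it, lower on all treated arrays (log2 fold change -0.39, SE 0.19, limma adjusted p = 0.741). HOXA-AS3 and HOXA11-AS had the largest detected differences of that list, -0.56 (SE 0.34) and -0.41 (SE 0.20). Whether each probe set reads the strand of its transcript was not checked, so antisense partners within a cluster cannot be told apart here. Of 23 genes beside the clusters 19 were measured, with 0 past the test and a median of 0.02. NPFF and CALCOCO1, both beside HOXC, had the largest differences among the detected ones, -0.44 (SE 0.22) and -0.37 (SE 0.21), and CALCOCO1 was lower on all treated arrays.

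Of the 9 listed HOX cofactors, homeodomain proteins of the PBX, MEIS and PKNOX families that bind DNA with HOX factors, 8 were measured and 0 passed the test, with a median log2 fold change of -0.04. The largest detected differences were those of PKNOX1 (-0.17, SE 0.16) and PBX4 (-0.17, SE 0.28). All 6 ParaHox genes, the sister group of the HOX clusters, were measured and 0 passed. CDX2, a regulator of intestinal identity, gave 91.6, 26.0 and 10.4 with 5-Aza and 62.1, 83.9 and 81.4 without it, so that 1 treated array was above and the other treated arrays below the controls (log2 fold change -1.32, SE 0.78). GSX2 had 0.46 (SE 0.28). In the retinoic acid pathway, which is known to control HOX transcription in embryos, 14 of 17 genes were measured, with a median log2 fold change of 0.25. At an unadjusted limma p under 0.025, 1 was higher and 0 lower, where 2.97% and 1.05% of all probe sets were called. The higher gene was CYP26A1, which degrades retinoic acid (log2 fold change 1.83, SE 0.57, limma p = 0.021, adjusted p = 0.604, exact permutation p = 0.1), above the background on 2 treated arrays and no control array.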

How the data were processed

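Transcript levels in HT-29 cells were read on 6 HGU133 Plus2.0 arrays, 3 per group. The deposited table holds 1 linear intensity for each probe set and array, made by the authors with the affy package per the labels (version not given), and each array's mean without its lowest and highest 2% was 500. The other experiments of the study were not analysed here.

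Log2(signal + 1) values of 54614 probe sets (61 Affymetrix control probe sets left out) entered 1 linear model (limma 3.58.1, R 4.3.3) with the group as the only term, and Benjamini-Hochberg adjustment covered all of them. Single values were compared by an exact permutation test. On simulated data, limma recovered 56.6% of log2 changes of 1 and 75.8% of changes of 2 at an unadjusted p under 0.025. The number of arrays limits the precision. Figures were drawn with matplotlib 3.10.9.

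Symbols came from the platform annotation, in which 41097 probe sets have 1 symbol, 1801 several and 11777 none, and all 28 HOX symbols matched RefSeq. A gene was represented by its probe set with the highest mean signal, with _x_at only where it had no other. Values per array were given for the 8 HOX genes with the highest mean signal and for HOX probe sets whose groups did not overlap, and for other lists up to 4 genes with p under 0.025, or else the 2 largest differences among detected genes. Other values were named after they were seen. The members, lists and tests were chosen with earlier results of these data known. Alternatives covered the constant added, quantile normalization, median centring, a replicate block, another variance model and a SAM-type statistic. They also covered a filter on low signals, other detection levels, leaving out _x_at probe sets and leaving out each array.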

Additional observations from a re-analysis of the deposited data

How the results depend on the processing

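Deviations of arrays with the same replicate number correlated at -0.0117, 0.0021 and 0.00965 over all probe sets tested. These values show no shared deviation, and they cannot show whether such arrays came from paired cultures. With the replicate number as a block, the counts of HOX probe sets past an unadjusted limma p of 0.025 were 0 higher and 0 lower, so that neither HOXD1 nor HOXC4 passed. The SAM-type statistic also gave 0 and 0. Median centring gave 5 lower at that threshold (2.66% of all probe sets) and 11 lower without overlap (15.1% of all). Trended, robust variances gave 5 lower (1.66% of all). Under both, the probe sets of HOXB3, HOXB6, HOXB8 and HOXB9 named above as lower without overlap passed beside HOXC4. Among probe sets with a mean above the median, 29 HOX probe sets remained to be tested. Of these, 1 was higher without overlap, where the share of all probe sets tested was 10.4%. Leaving out 1 array gave 0 to 3 lower at the threshold, where 1.03% to 1.31% of all probe sets were called. It gave 3 to 7 higher and 6 to 10 lower without overlap, the 7 without control array 3 and the 10 without control array 1 or 2. Of all probe sets, 14.5% to 16.3% were then higher without overlap and 8.65% to 11.3% lower. With all arrays these shares were 9.29% and 5.22%. With a signal of 100 as the detection level, 16 HOX genes were detected on all 3 treated and 16 on all 3 control arrays. The main setting gave 24 and 22. The other counts of HOX probe sets and of detected genes stayed within 1.5 times their values. By limma's adjusted p under 0.05, trended, robust variances called 23 and the filter on low signals 9 of all probe sets, with 0 HOX probe sets among them. HOXC4 missed the threshold in 8 of 14 alternatives and HOXD1 in 2 of 14, and the mean of both HOXD1 probe sets reversed its sign (-0.10). HOXB7, HOXB9 (226461_at) and HOXC6, none of them called, changed sign in 1, 1 and 2 alternatives. The causes were not tested. Probe sets near the background limit what can be said of HOXB1, HOXC10, HOXC12 and the posterior HOXD genes.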
